A study of Rattus norvegicus with 7 samples.

Results

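The genes described here are 10 genes of the low-oxygen and glycolysis programme: the glucose transporter gene Slc2a1, the glycolytic genes Hk2, Pfkfb3, Pgk1 and Ldha, the pyruvate dehydrogenase kinase gene Pdk1, the mitochondrial gene Bnip3, and Vegfa, Angptl4 and Adm, which encode secreted factors. They were taken by name, as every probe set annotated with exactly 1 of these symbols. All 10 genes were found, among 14217 singly named genes, with 16 of the 20826 singly named probe sets. A probe set is a group of short oligonucleotides that together read 1 transcript, and 14 of the 16 averaged 100 or more over the arrays. The other 2, Pfkfb3 1397082_at and Pgk1 1368906_at, had signals between 6.85 and 20.2 and between 1.35 and 15.5 and were not tested.

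The cells came from the spinal cords of E15 Sprague-Dawley rat embryos, freed of dorsal root ganglia and meninges, dissociated, and cultured on flexible membranes that were stretched by 10% at 0.5 Hz. RNA was taken before any stretch (0 hours) and after cyclic stress of 2, 6, 12 or 24 hours, or of 48 or 72 hours. At each time RNA of 5 animals was pooled onto 1 array, so 7 arrays were compared, with no replicate at any time. None of the 7 arrays is of cultures left unstretched for the same hours, so hours of stretch and hours in culture cannot be told apart. The oxygen level of the cultures is not given in the sources used here. A difference was called past the size threshold when the signal was at least 2 times or at most 0.5 times that at 0 hours and differed from it by at least 200. Changes with time were tested in limma on log2(signal + 32), by a straight line over hours and by a curve that also allows an early change that levels off, and "rose" and "fell" refer to the line. In both, the error is the scatter of the arrays around the fitted line or curve and not that between replicate cultures.

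The cultures were mixed, and the signals of cell type markers moved with time. The summed signal of 12 neuronal markers was 6068 at 72 hours, against 19540 at 0 hours, and all 12 were lower at 72 hours. The 9 measured skeletal muscle markers summed to 3572 at 72 hours, against 12084 at 0 hours, and all 9 were lower at 72 hours. Astrocyte, oligodendrocyte lineage and fibroblast markers were also present, and endothelial markers summed to between 1543 and 2459, with Pecam1, Tek, Cldn5 and Vwf below 100 on all 7 arrays. The signals of microglial and macrophage markers summed to between 27439 and 58383, with the lowest sum at 72 hours and the highest at 6 hours. The 3' to 5' signal ratio of beta-actin, a measure of RNA integrity, was 1.82, 1.53, 1.83, 1.95, 2.20, 2.54 and 2.62 in the order of time, and that of Gapdh lay between 1.09 and 1.17. In a mixed culture fewer cells of a type and less RNA per cell cannot be told apart, and the part of these shifts in the results below was not tested.

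When oxygen is short, the HIF alpha subunits escape the prolyl hydroxylases that mark them for destruction, pair with ARNT and bind short DNA elements near their target genes. The targets take up more glucose, speed glycolysis, keep pyruvate out of the mitochondria as lactate, and call in blood vessels. Several of the same genes are also switched on by other routes, such as the PPAR nuclear receptors for Angptl4 and growth factor signalling for glycolysis. In the spinal cord, astrocytes are known for high glycolytic flux, and VEGF-A acts on both vessels and neurons.

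The HIF binding core is short, and the promoters of the members differ in how many copies they hold. The RefSeq promoters of assembly GRCr8, 250 bases before to 50 after each transcription start, were available for 9 of the 10 genes, with 2 starts for Vegfa and none for Pgk1. They were searched on both strands for ACGTG and GCGTG, which read CACGT and CACGC on the other strand, with each copy counted on its own, so that a CACGTG counts as 2. At least 1 core was present in 6 of these 10 promoters (60%), against 41.6% of all 33469 rat promoters of this length, and 2 or more in 50% against 19.2%. The promoters of Hk2, Vegfa and Adm had none in this window. A match is a description of the letters only. 4 promoters are printed 5' to 3' on the strand of the gene with the cores in capitals, 3 for the genes with the largest fitted linear changes over 72 hours and Ldha for a gene with many cores and little change.
Angptl4, chr7:15258632-15258931, minus strand: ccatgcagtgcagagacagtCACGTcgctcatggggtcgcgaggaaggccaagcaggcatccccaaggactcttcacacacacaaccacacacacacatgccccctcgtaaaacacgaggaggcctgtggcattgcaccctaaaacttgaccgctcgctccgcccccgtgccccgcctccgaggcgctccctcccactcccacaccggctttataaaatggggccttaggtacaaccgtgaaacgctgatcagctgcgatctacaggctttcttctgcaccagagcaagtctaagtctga
Vegfa, first start, chr9:22452604-22452903, plus strand: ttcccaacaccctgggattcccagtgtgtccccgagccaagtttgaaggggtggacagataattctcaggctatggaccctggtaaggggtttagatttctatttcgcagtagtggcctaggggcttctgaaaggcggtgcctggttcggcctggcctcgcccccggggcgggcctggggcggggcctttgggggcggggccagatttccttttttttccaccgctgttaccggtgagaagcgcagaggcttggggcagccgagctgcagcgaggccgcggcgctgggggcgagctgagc
Pdk1, chr3:77113264-77113563, plus strand: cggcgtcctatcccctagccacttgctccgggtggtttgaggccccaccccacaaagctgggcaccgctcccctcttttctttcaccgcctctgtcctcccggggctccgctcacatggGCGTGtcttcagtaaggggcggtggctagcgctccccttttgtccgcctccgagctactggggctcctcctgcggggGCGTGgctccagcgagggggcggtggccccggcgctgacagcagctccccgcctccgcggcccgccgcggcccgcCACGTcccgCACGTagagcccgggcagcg
Ldha, chr1:106507842-106508141, plus strand: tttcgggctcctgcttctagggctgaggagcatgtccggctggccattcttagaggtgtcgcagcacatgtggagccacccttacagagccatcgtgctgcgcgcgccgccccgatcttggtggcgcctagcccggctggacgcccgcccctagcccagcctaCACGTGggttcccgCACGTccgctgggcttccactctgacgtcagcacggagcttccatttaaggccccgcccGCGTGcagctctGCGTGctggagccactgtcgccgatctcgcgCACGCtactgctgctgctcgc

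The largest fitted linear changes of the set over 72 hours were those of Angptl4, Vegfa and Pdk1. By the line, 3 of the 14 tested probe sets rose, 1 for Angptl4 and 2 for Vegfa, against a background of 15.0% of all 17709 tested probe sets. Another 3 fell, 1 for Pdk1 and 2 for Pgk1, against a background of 14.1%, and 29.0% of all tested probe sets passed in either direction. By the curve 7 of the 14 changed, from 6 genes, against a background of 36.0%. Read against backgrounds of this size, the counts are no result about the 10 genes as a set. Angptl4 and Vegfa are among the genes that the study itself picked as upregulated on these arrays, so their rise is not independent evidence.

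**Figure D1:**
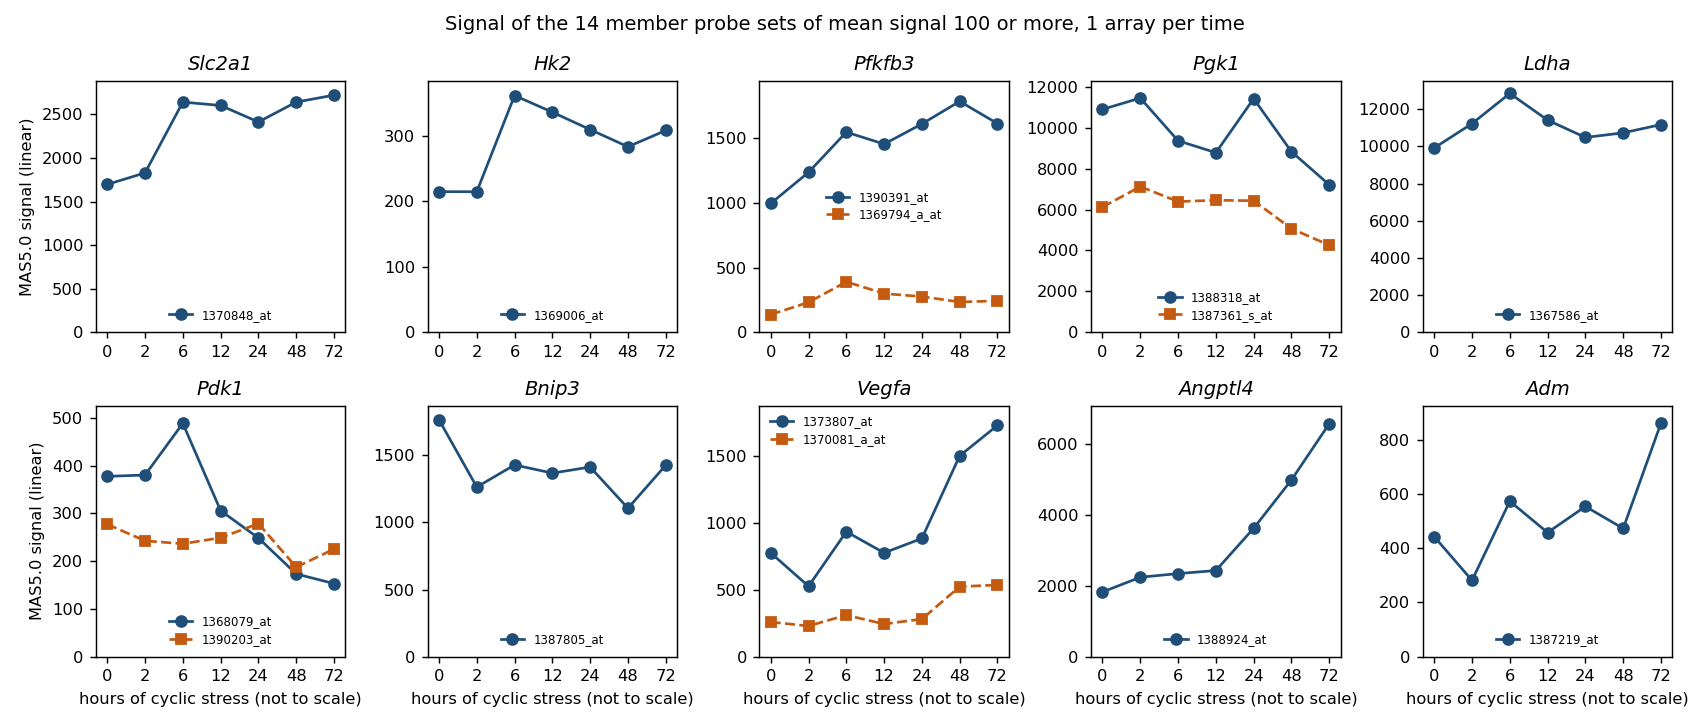
Signal (linear MAS5.0 units) of the 14 member probe sets that averaged 100 or more, against hours of cyclic stress, 1 point per array and no error bars because each time has 1 array. Angptl4 and both Vegfa probe sets were highest at 72 hours, Pdk1 probe set 1368079_at was lowest there, and Slc2a1 and Hk2 were near their 0 hour signal at 2 hours and above it from 6 hours on. Levels of different probe sets cannot be set against each other.

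Angptl4 encodes a secreted protein that inhibits lipoprotein lipase and thereby holds back the uptake of fatty acids from lipoproteins. Its signal was 1826, 2242, 2345, 2430.3, 3621, 4983 and 6568 in the order of time, from 0 to 72 hours. It was higher on every array than on the one before, and stayed within 1.33 times the 0 hour signal up to 12 hours. At 72 hours it was 3.60 times the 0 hour signal and at 48 hours 2.73 times, both past the size threshold. It rose by 1.76 ± 0.15 (standard error) on the log2(signal + 32) scale over 72 hours, with an adjusted p of 0.000151 by limma, the largest fitted rise among the members.

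Vegfa encodes VEGF-A, the main growth signal for blood vessels. Probe set 1373807_at gave 774, 526, 933, 775, 883, 1498 and 1725 in the order of time, and probe set 1370081_a_at gave 259, 229.9, 311, 244, 281, 523 and 536. Both had their lowest signal at 2 hours and their highest at 72 hours, and in both the next highest was at 48 hours. At 72 hours the signals were 2.23 and 2.07 times those at 0 hours, past the size threshold in both. The fitted rise was 1.38 ± 0.23 for the first and 1.14 ± 0.22 for the second (log2 scale, limma adjusted p of 0.00244 and 0.00418).

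Adm encodes adrenomedullin, a peptide that widens vessels and tightens endothelial layers. Its signal was 442, 281, 573, 457, 554, 472 and 860.1 in the order of time. It was lowest at 2 hours and stood out only at 72 hours, where it was 1.94 times the 0 hour signal and 1.82 times that at 48 hours. The fitted change of 0.86 ± 0.30 did not pass (limma adjusted p of 0.0514). It passed without the 0, the 6 or the 48 hour array (adjusted p of 0.0468, 0.0275 and 0.039) and after scaling to a common median (0.0483). Without the 2 hour array the change was 0.63 (0.111), and without the 72 hour array it was 0.44 (0.569), so its size rests largely on the 72 hour array. The value of 0.44 is the slope up to 48 hours scaled to 72 hours.

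Pdk1 encodes a kinase that phosphorylates and switches off pyruvate dehydrogenase, the enzyme that feeds pyruvate into the citric acid cycle. Probe set 1368079_at had signals of 377, 380.0, 488, 306, 248, 173 and 153 in the order of time. It was highest at 6 hours and lower on each later array, and at 72 hours it was 0.406 times the 0 hour signal, past the size threshold as at 48 hours (0.459 times). It fell by 1.36 on the log2 scale (standard error 0.23, limma adjusted p of 0.00239). The second probe set, 1390203_at, read 277, 243, 236, 249, 279, 188 and 225, and its change of -0.26 ± 0.20 did not pass (adjusted p of 0.345). The call for Pdk1 therefore stands for 1 of its 2 probe sets.

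Pyruvate dehydrogenase has 4 kinases, and the other 3 had different courses. Pdk4, the kinase induced by fasting and by fatty acids, had a signal of 202, 247, 220.5, 294, 438, 564 and 1082 in the order of time. At 72 hours this was 5.35 times the 0 hour signal, and Pdk4 rose by 2.13 ± 0.18 on the log2 scale (limma adjusted p of 0.0002). Pdk2 had 609 at 72 hours, against 584 at 0 hours, and Pdk3 had 529.8 at 72 hours, against 819.8 at 0 hours. Neither passed the line (adjusted p of 0.378 and 0.0662), while Pdk3 changed by the curve (0.0153). The difference between Pdk1 and Pdk4 is one of direction within the same 7 arrays and was not itself tested. Pdk2 and Pdk3 were named after their values were seen.

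Slc2a1 encodes GLUT1, the transporter that brings glucose into most cells. Its signal was 1697, 1829, 2642, 2604, 2414, 2643 and 2722 in the order of time. From 6 hours on all 5 arrays lay between 1.42 and 1.60 times the 0 hour signal, while the 2 hour array was at 1.08 times. The curve passed (limma adjusted p of 0.0165) and the line over hours did not (0.46 ± 0.21, adjusted p of 0.122). Without the 0 hour array the curve did not pass (adjusted p of 0.190), so this call rests on that array.

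Hk2 encodes the inducible hexokinase, which traps glucose as its phosphate. Its signal was 215, 215, 362, 336, 309.8, 284 and 308 in the order of time. Like Slc2a1 it was at its 0 hour level at 2 hours and at 1.32 to 1.68 times that level on the later arrays. Neither the line (0.21 ± 0.26, limma adjusted p of 0.572) nor the curve (0.163) passed. With 1 array left out the fitted change lay between 0.062 (without 0 hours) and 0.35 (without 6 hours).

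Pfkfb3 encodes the enzyme that makes fructose 2,6-bisphosphate, the activator of phosphofructokinase. Probe set 1390391_at gave 996, 1237, 1548, 1455, 1612, 1786 and 1614 in the order of time, and 1369794_a_at gave 136, 231, 389, 298, 275, 234 and 242. All 6 later arrays were above 0 hours in both, but the first probe set was highest at 48 hours and the second at 6 hours. At 6 hours the second was 2.86 times its 0 hour signal, the only member past the size threshold at that time, when 0.351% of all 31042 probe sets were past it in this direction and 1.22% in the other. The first changed by the curve (limma adjusted p of 0.0044) but not by the line (0.49 ± 0.21, adjusted p of 0.0973), and its curve did not pass without the 0 hour array (0.110). The second passed neither test (0.939 by the line, 0.0674 by the curve), though its curve passed without the 6 or the 72 hour array (0.0414 and 0.0427).

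Ldha encodes the lactate dehydrogenase subunit that turns pyruvate into lactate, and Pgk1 the phosphoglycerate kinase that makes ATP in glycolysis. Ldha had signals of 9916, 11228, 12852, 11415, 10481, 10730.2 and 11173 in the order of time. All later arrays were above 0 hours, by at most 1.30 times at 6 hours, and no test passed (line -0.02 ± 0.13, limma adjusted p of 0.911). Ldha was chosen for print by its many cores and little change, so no link between cores and change was tested. The sign of its fitted line is not fixed, since it was positive with quantile normalization, with other forms of time and without the 6 hour array.

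Pgk1 moved the other way at the end of the series. Probe set 1388318_at gave 10909, 11464, 9373, 8788, 11433, 8838 and 7218, and 1387361_s_at gave 6128, 7127, 6394, 6460.2, 6436, 5068 and 4260.1, in the order of time. Both were lowest at 72 hours, at 0.662 and 0.695 times their 0 hour signals, and neither was past the size threshold. The line fell by 0.50 (standard error 0.16, limma adjusted p of 0.0413) and by 0.63 (standard error 0.12, adjusted p of 0.00463). Neither passed without the 72 hour array, where the slopes up to 48 hours, scaled to 72 hours, were -0.31 and -0.52 (adjusted p of 0.459 and 0.114). The first also did not pass without the 0, the 2 or the 48 hour array. The fitted changes there were -0.49, -0.45 and -0.53 (adjusted p of 0.0565, 0.108 and 0.0804). It did not pass after quantile normalization, with -0.40 (0.0812), with no filter on low values (0.0727) or with the square root of hours (0.0577). With log2(hours + 1) neither probe set passed (0.102 and 0.0916). The ending of the second probe set's name marks oligonucleotides shared by several transcripts, so part of its signal may come from related sequences. Gapdh, a neighbouring glycolytic enzyme, read 18184 at 72 hours, against 17315 at 0 hours, on its 3' control probe set.

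Bnip3 encodes a mitochondrial outer membrane protein that marks mitochondria for removal and can promote cell death. Its signal was 1762, 1262, 1427, 1366, 1411, 1105 and 1424 in the order of time. It was highest at 0 hours, and all 6 later arrays lay at 0.627 to 0.809 times that signal. Neither the line (-0.19 ± 0.19, limma adjusted p of 0.491) nor the curve (0.216) passed. With 1 array left out the fitted change lay between -0.61 (without 72 hours) and -0.041 (without 0 hours). Its promoter has 3 separate stretches with cores within the window.

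**Figure D2:**
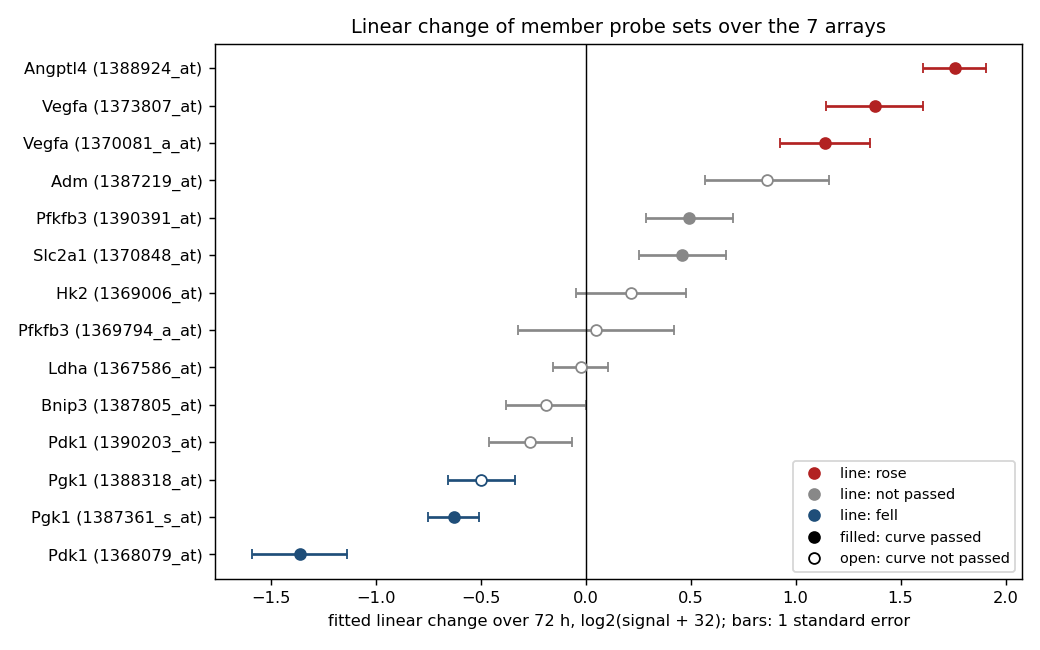
Fitted linear change over 72 hours (log2(signal + 32) scale) of the 14 tested member probe sets, with bars of 1 standard error. Filled points passed the curve and open points did not. Angptl4 at 1.76 and both Vegfa probe sets at 1.38 and 1.14 rose, Pdk1 probe set 1368079_at at -1.36 and both Pgk1 probe sets at -0.50 and -0.63 fell, and the other 8 did not pass the line.

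Against the 0 hour array, the members passed the size threshold mostly late. At 2, 12 and 24 hours no member of the 16 probe sets was past it in either direction, where 0.0387%, 0.419% and 0.496% of all probe sets were higher and 0.470%, 1.71% and 1.31% lower. At 48 hours 2 were higher, Angptl4 and Vegfa 1370081_a_at (background 1.98%), and 1 was lower, Pdk1 1368079_at (background 3.05%). At 72 hours 3 were higher, Angptl4 and both Vegfa probe sets (background 2.60%), and 1 was lower, the same Pdk1 probe set (background 3.54%). This is a rule of size on single arrays and not a test. The backgrounds are over all 31042 probe sets, of which 42.5% to 44.3% lay below 100 on each array. Of the 16 member probe sets 14 averaged 100 or more, so these shares are not those of probe sets of like signal.

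Many members also had a small peak at 6 hours, a pattern picked out after the signals were seen and therefore given as a description. In 10 of the 14 tested probe sets the 6 hour signal was above both the 2 and the 12 hour signals, as in 28.8% of all tested probe sets. The margin over the higher of the 2 neighbours was 1.28 for Pdk1 1368079_at, 1.31 for Pfkfb3 1369794_a_at, 1.20 and 1.27 for Vegfa, 1.25 for Adm and 1.13 for Ldha. It was between 1.01 and 1.08 times in Slc2a1, Hk2, Pfkfb3 1390391_at and Bnip3, and with 1 array per time no margin can be set against a replicate spread. In 4 of the 14 the 6 hour signal was the highest of all 7 arrays, against 14.2% of all probe sets. On the same array the summed microglial markers were at 1.24 times their 0 hour signal and the astrocyte markers at 0.629 times, and their part in the peak was not tested.

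The members are a selection from larger pathways, which were set beside them with 1 probe set per gene. Over the 10 members the median log2 change of the 72 hour array from the 0 hour array was 0.57. Over all 10315 singly named genes tested it was -0.03. The members were chosen with earlier results of these data known, so this difference is no result about the set. By the line 2 of the 10 members rose and 2 fell. The medians given for the lists below are likewise of the 72 hour array from the 0 hour array. Among those 10315 genes 13.9% rose, 16.03% fell and 37.7% changed by the curve. Of 20 tested genes among 25 other glycolysis and lactate genes, 3 rose (Hk1, Pgam1 and Bpgm) and 2 fell (Slc16a3 and Slc16a7), 15 did not pass, and the median change was 0.05. Slc16a7 and Slc16a3 encode the lactate and pyruvate carriers MCT2 and MCT4. Slc16a7 had a signal of 318 at 72 hours, against 639 at 0 hours, a ratio of 0.498. Slc16a3, named after its values were seen, read 913, 1234, 1449, 778, 869.5, 456 and 612 in the order of time, with its highest signal at 6 hours.

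Genes at the entry of pyruvate into mitochondria gave 2 that rose, Pdk4 and Pc, and 1 that fell, Mpc2, of 12 tested, with a median change of 0.12. Pc encodes pyruvate carboxylase, which refills the citric acid cycle and in brain is known from astrocytes. Its signal was 449, 507, 645, 1003, 1279, 1567 and 1261 in the order of time, a rise of 1.44 ± 0.37 on the log2 scale (limma adjusted p of 0.017). It climbed up to 48 hours and was 2.81 times the 0 hour signal at 72 hours. On the 72 hour array 2 of 7 measured astrocyte markers were lower than at 0 hours and their summed signal was at 0.948 times that at 0 hours, and their part in the signal of Pc was not tested.

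**Figure D3:**
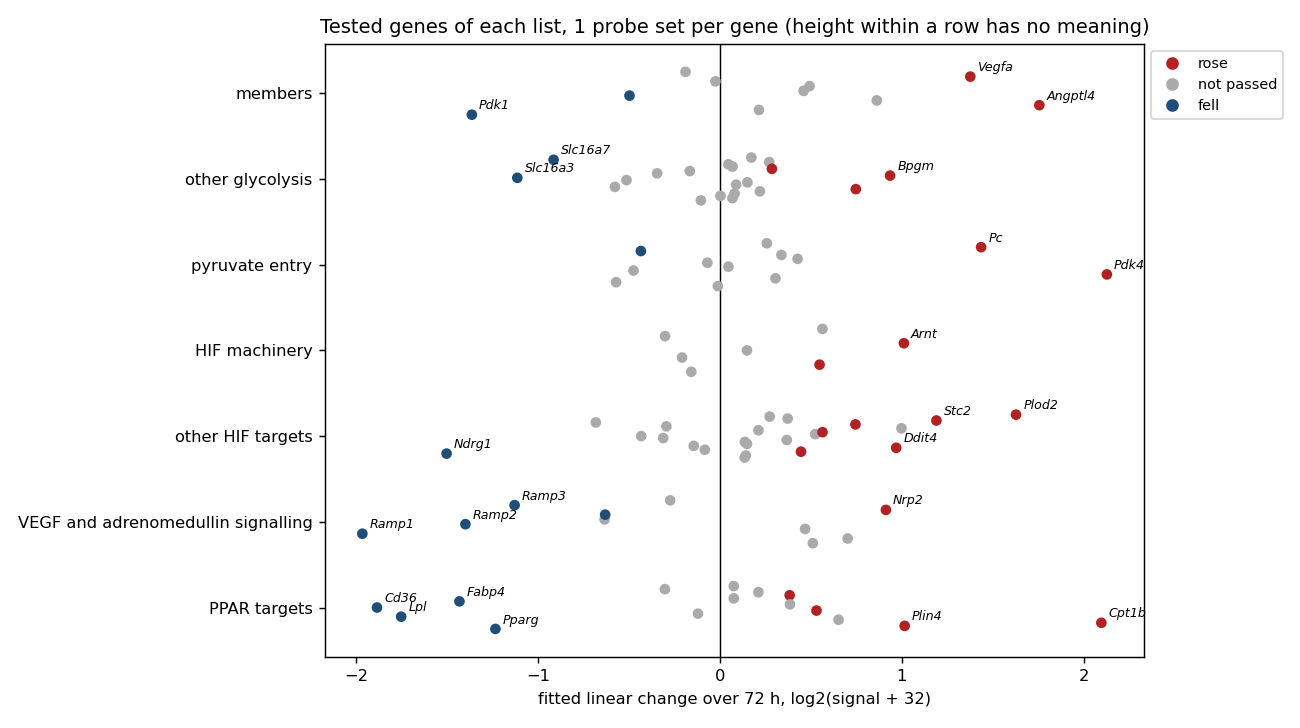
Fitted linear change over 72 hours (log2(signal + 32) scale) of each tested gene, 1 row per list and 1 point per gene, coloured by the call of the line. The members reach from -1.36 (Pdk1) to 1.76 (Angptl4), the other glycolysis genes lie mostly around 0, and the lists of PPAR targets and of pyruvate entry hold Cpt1b at 2.10 and Pdk4 at 2.13.

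The HIF machinery itself gave 2 genes that rose of 7 tested, Hif1a and Arnt, with none falling and a median change of 0.20. Hif1a, the oxygen-regulated subunit, which is controlled mostly at the protein level, read 4065, 3918, 4283, 3876, 4129.9, 4362 and 6296 in the order of time. Its signal stayed close to the 0 hour one up to 48 hours and was 1.55 times it at 72 hours (0.55 ± 0.14, limma adjusted p of 0.0166). Epas1, which encodes HIF-2 alpha, read 1849.8 at 72 hours, against 1045 at 0 hours, and did not pass (adjusted p of 0.0533). Egln3, a prolyl hydroxylase and itself a HIF target, lay between 63.6 and 151, averaged below 100 and was not tested.

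Of 32 symbols listed as other HIF targets, 23 were tested. Of these 6 rose (Ddit4, Plod2, Mxi1, Kdm3a, Tfrc and Stc2), 1 fell (Ndrg1) and 16 did not pass, with a median change of 0.28. Plod2, a collagen-modifying enzyme, read 3332 at 72 hours, against 1259 at 0 hours, a fitted rise of 1.63 ± 0.18 (limma adjusted p of 0.000423). Hmox1, the haem oxygenase, read 3985, 6491, 11387, 12227, 10442, 8973 and 14765 in the order of time and changed by the curve (adjusted p of 0.011) but not by the line (0.113). Ndrg1, a stress-induced gene named here after its values were seen, read 6609, 8229.5, 11795, 7048, 7459, 3339 and 3428. Its highest signal was at 6 hours and its lowest were at 48 and 72 hours, like Pdk1 1368079_at, and it fell by 1.503 (standard error 0.30, adjusted p of 0.0056).

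The ligands Vegfa and Adm were set beside their receptors and related ligands, of which 10 of 15 listed symbols were tested. In this list 1 rose (Nrp2), 4 fell (Nrp1, Ramp1, Ramp2 and Ramp3) and 5 did not pass, and the median change was -0.37. Kdr, the main VEGF-A receptor of endothelium, lay between 34.4 and 70.6 and was not tested, and Flt1 read 287 at 72 hours, against 194 at 0 hours (limma adjusted p of 0.0781). Nrp2, a co-receptor of VEGF and semaphorins, read 2482 at 72 hours, against 1221 at 0 hours, with a fitted rise of 0.91 ± 0.27 (adjusted p of 0.0309).

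Adrenomedullin signals through the receptor Calcrl, whose ligand choice is set by a partner of the Ramp family. Ramp2 read 848, 622, 709, 517, 565, 309 and 279 in the order of time and fell by 1.40 (standard error 0.21, limma adjusted p of 0.00144). Ramp1, which turns Calcrl into the receptor for calcitonin gene-related peptide, read 340.1, 635, 588, 451, 274, 152 and 126 and fell by 1.97 (standard error 0.32, adjusted p of 0.0022). Ramp3, named after its values were seen, fell by 1.13 (adjusted p of 0.0479). Calcrl itself read 94.0 at 72 hours, against 151 at 0 hours, and did not pass (adjusted p of 0.100). At 72 hours Adm had its highest signal, and Calcrl, Ramp1 and Ramp2 had their lowest. The change of Adm passed neither the line nor the curve nor the size threshold, and that of Calcrl passed neither the line nor the curve. The contrast of ligand and receptor signals was not tested. The summed neuronal, endothelial and microglial markers at 72 hours were 0.311, 0.792 and 0.583 times those at 0 hours, and their part in the receptor signals was not tested.

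**Figure D4:**
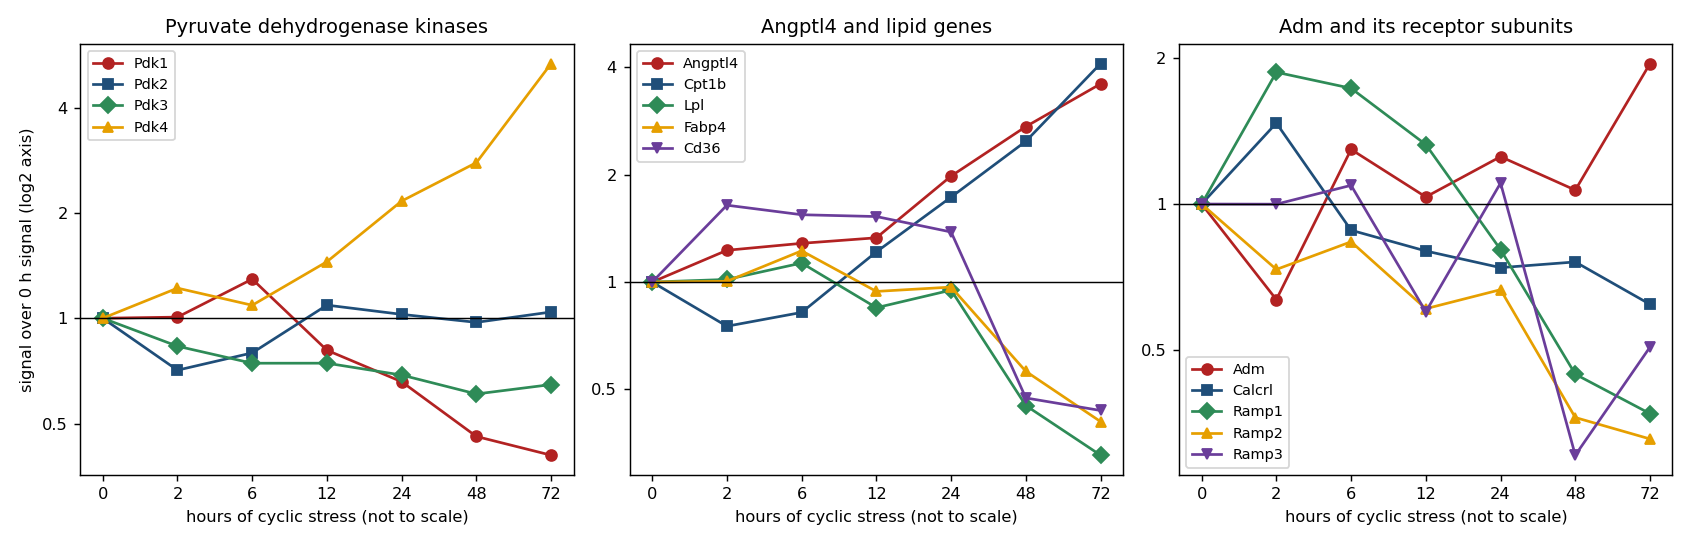
Signal relative to the 0 hour array (log2 axis) against hours of cyclic stress for the pyruvate dehydrogenase kinases, for Angptl4 with lipid genes, and for Adm with its receptor subunits, 1 array per point. At 72 hours Pdk4 was at 5.35 and Pdk1 at 0.406, Angptl4 at 3.60 and Lpl at 0.327, and Adm at 1.94 and Ramp2 at 0.329.

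Angptl4 is a target of the PPAR receptors as well as of HIF, so the PPAR targets were listed with it. The list also holds the receptor genes Ppara, Ppard and Pparg. Of these, Pparg had a fitted change of -1.23 (standard error 0.24, limma adjusted p of 0.00509), Ppard did not pass and Ppara was not tested. Of 15 tested, 4 rose (Cpt1a, Cpt1b, Plin4 and Acadvl), 4 fell (Cd36, Fabp4, Lpl and Pparg), 7 did not pass, and the median change was 0.23. Cpt1b, whose enzyme serves the entry of fatty acids into mitochondria, read 181, 136, 148, 219, 313, 448 and 741 in the order of time. At 72 hours it was at 4.10 times its 0 hour signal, a rise of 2.10 ± 0.21 (limma adjusted p of 0.000273).

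Of the 4 genes that fell, 3 serve the uptake and binding of fatty acids. Lpl, the lipase that Angptl4 inhibits, read 5984 at 72 hours, against 18304 at 0 hours, and fell by 1.75 (standard error 0.18, limma adjusted p of 0.000291). Fabp4, a fatty acid carrier of fat cells and macrophages, read 7743 at 72 hours, against 19066 at 0 hours, and Cd36, a fatty acid receptor, read 939.6 at 72 hours, against 2154 at 0 hours. They were at 0.327, 0.406 and 0.436 times their 0 hour signals at 72 hours. Over the same arrays all 9 microglial and macrophage markers were lower at 72 hours than at 0 hours, with a summed ratio of 0.583, as were all 9 measured muscle markers, with a summed ratio of 0.296, and their part in this fall was not tested.

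For the 4 members whose main probe set, the one of highest mean signal, spanned at least 1 on the log2 scale, the most similar time courses were sought among 10314 other genes. The measure was the root mean square difference of the log2 change over the 6 later arrays. For Angptl4 these were Clk4 (0.184) and Epha2 (0.184), for Vegfa Fa2h (0.127) and Slc26a8 (0.145), for Pdk1 Col15a1 (0.131) and Cenpu (0.133), and for Adm Pik3ca (0.198) and Itga3 (0.217). None of these 8 genes is a member, so none of these 4 members had another member among its 2 closest. The other members were not searched. With only the 2 closest of 10314 genes kept, a member was unlikely to be among them, so no conclusion on shared courses is drawn.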

How the data were processed

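Signals of 7 Affymetrix Rat Genome 230 2.0 arrays, 1 per time, were used. The authors calculated a linear signal intensity per probe set with MAS5.0 in GCOS, scaled each array globally to a trimmed mean of 500, and deposited these intensities; weak signals are unreliable after such background subtraction, and 42.5% to 44.3% of each array lay below 100. Array medians were between 145 and 162, no sequencing depth exists, and the number of arrays limits the precision. Signals were converted here to log2(signal + 32), which understates changes of low signals, and tested in limma 3.58.1 under R 4.3.3 (eBayes with an intensity trend) in 17709 probe sets with a mean of at least 100, by a line over hours (5 residual degrees of freedom) and by a curve of hours and their square root (F test, 4 residual degrees of freedom), with Benjamini-Hochberg adjustment to 0.05 over all of them. Both were also run on simulated data with independent noise and far fewer changed probe sets than were called here. That run does not measure their error on these arrays. The size threshold follows the study's methods and was applied to 31042 probe sets, without 57 controls; spots the authors left out as uninterpretable were not removed. Gene names came from the 2016 annotation of the platform; 436 probe sets listed under several genes and 9780 under none were left unnamed, and all 10 symbols matched GRCr8. Listed genes without a singly named probe set, such as Pkm, are not analysed here. Lists used the probe set of highest mean signal per gene. The members and lists were chosen with earlier results of these data known. Named were all members, and in each list up to 4 genes past the threshold at 72 hours. Also named were Hif1a, Epas1, Egln3, Kdr, Flt1 and Gapdh. So were the 2 most similar genes of each member that spanned at least 1 on the log2 scale. All other genes of the pathway lists given with values or calls, such as Hk1, Pgam1, Bpgm and Arnt, were named after their values were seen. Alternatives were other pseudocounts, filters, normalizations, forms of time, thresholds and baselines, and each array left out in turn. Python 3.11.15, numpy 2.4.6 and pandas 2.3.3 gave the other values.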

Additional observations from a re-analysis of the deposited data

How the results depend on the processing

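The calls of the line and the curve for Angptl4, both Vegfa probe sets and Pdk1 1368079_at were kept under every alternative run. The number of member probe sets that rose by the line was 3, and 5 with the square root of hours or with log2(hours + 1), where Slc2a1 and Pfkfb3 1390391_at also passed, and 3 to 4 with 1 array left out. The number that fell was 3, and 2 with no filter on low values, with quantile normalization or with the square root of hours. It was 1 with log2(hours + 1), and 1 to 3 with 1 array left out, with 1 left without the 72 hour array. The curve called 7, and 5 to 10 with 1 array left out. At 72 hours, the number past the size threshold was 3 higher and 1 lower, 7 higher and 2 lower with a ratio of 1.5 and a difference of 100, and 1 higher (Angptl4) and 0 lower with a ratio of 3. The fitted change of Ldha, -0.02, was 0.088 after quantile normalization, 0.013 with the square root of hours and 0.048 with log2(hours + 1), and ranged between -0.11 and 0.051 with 1 array left out, the highest without the 6 hour array. That of Pfkfb3 1369794_a_at, 0.05, ranged between -0.33 and 0.26 with 1 array left out, the lowest without the 0 hour array, and was 0.29 and 0.48 with the square root of hours and with log2(hours + 1). The cause was not tested. Scaling each array to a common median shifted the median log2 change of all tested probe sets by 0.14, 0.16, 0.13, 0.09, 0.12 and 0.07 from 2 to 72 hours, and under it 4 member probe sets rose, with Adm added, and the curve called 9.

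No paired analysis was possible because each time has 1 array and no replicate number. Without replicates, a single array that stands apart cannot be told from a change at that time. Probe sets with a mean signal below 100, such as those of Kdr and Egln3, were not tested. Over all probe sets the line called 5143, and 2592 without the 72 hour array, the largest loss among the arrays left out.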
